A study of Mus musculus with 10 samples.

Results

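The regions described here lie in the 4 large antigen receptor loci of the mouse: the immunoglobulin heavy chain locus (Igh), the immunoglobulin kappa locus (Igk), the T cell receptor beta locus (Trb), and the joint T cell receptor alpha and delta locus (Tra/Trd). Members were chosen by position alone, as every counted region that overlapped chromosome 12 from 113.25 to 116.01 Mb (Igh), chromosome 6 from 67.55 to 70.73 Mb (Igk) and from 40.89 to 41.56 Mb (Trb), or chromosome 14 from 52.42 to 54.23 Mb (Tra/Trd), in mm10. This gave 427 of the 151133 regions of the study, with 132 in Igh, 129 in Igk, 47 in Trb and 119 in Tra/Trd. The study mapped where IKZF2 (Helios), an Ikaros family protein that binds DNA through zinc fingers, sits on chromatin. It used CUT&RUN, in which an antibody brings a nuclease to the protein inside permeabilised cells and the DNA that is cut free is sequenced. The cells were RN2 cells, a C57BL/6 mouse leukaemia line with the MLL-AF9 fusion and NRASG12D, and all of them overexpressed murine IKZF2 from a retrovirus that also carried RFP, were sorted and were then cultured for 2 weeks. The group used here held 6 samples with the anti-IKZF2 antibody, as 3 libraries with 2 technical replicates each. The 4 samples with a control antibody were not analysed here, and each comparison was made among regions within the anti-IKZF2 libraries. No RNA was measured in these files, so the labelled cell type was not tested against its markers.

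Antigen receptor genes are assembled in developing lymphocytes. The RAG1 and RAG2 recombinase joins one of many variable (V) segments to a joining (J) segment, in some loci through a diversity (D) segment, upstream of a constant (C) gene. Each V segment carries its own promoter just before its leader exon, and a few enhancers beside the J segments and constant genes act over the whole locus. Ikaros family proteins are known for their part in lymphocyte development, and their zinc fingers bind DNA with a GGGAA core.

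The study's files give positions and counts but no bases, and promoter sequences were taken from RefSeq (build GRCm38.p6, the same coordinates as mm10). That table holds 28 promoters inside the loci, each from 250 bases before to 50 bases after a gene's start, and none of a V segment. Regions overlapped 2 of the 28 (7.14%), against 6090 of all 32851 promoters (18.5%). Both are shown because they are the places where a member's own bases can be read. The overlapped bases are given 5′ to 3′ on the gene's strand, and capitals mark the 5-letter core GGGAA or its reverse complement TTCCC.
Gm5771 (Trb, plus strand, promoter chr6:41392106-41392405, bases 112 to 202): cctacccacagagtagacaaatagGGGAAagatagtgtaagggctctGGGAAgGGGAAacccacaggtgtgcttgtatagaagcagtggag
Gm46961 (Igk, minus strand, promoter chr6:70718827-70719126, bases 1 to 44): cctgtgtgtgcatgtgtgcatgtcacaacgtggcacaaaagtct
Gm5771 is a protein-coding gene among the trypsinogen genes that lie inside Trb, and the overlapped stretch held the core 3 times. Its region had 79.6, 42.5 and 26.7 CPM per kb in libraries 1, 2 and 3 (mean 49.6 ± 27.2, SD, n = 3), where CPM per kb is the region's count scaled to the library's total reads in regions (CPM) and divided by its width in kb. Gm46961 lies between the V and J segments of Igk, and its overlapped stretch held the core 0 times. Its region had 32.5, 34.7 and 88.2 CPM per kb (mean 51.8 ± 31.6, SD, n = 3). Both means were near the median of all regions (49.5), and in both the libraries spread widely. The core in either orientation was present in 20599 of the 32851 promoters (62.7%) and in 16 of the 28 inside the loci (57.1%), so its presence is a description and not a site.

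The first question was how many regions the loci held for their length. Regions stood at 50.7 per Mb over the 4 loci, against 56.9 per Mb over the nuclear genome and 59.4, 52.3 and 52.6 per Mb over chromosomes 6, 12 and 14. Igk was the sparsest at 40.6 per Mb, Igh had 47.8, Tra/Trd 65.7 and Trb 70.1. The small lambda light chain locus (Igl, chromosome 16), which was no member, had 12 regions at 60.3 per Mb. Members were narrow, with a median width of 107 bp against 109 bp over all regions, and 30 of them reached 200 bp. The region set was one for all samples, so these densities have no replicate error.

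Some stretches of segments held no region at all. The longest in Igh ran over 129.7 kb and 12 segments from Ighv1-35 to Ighv1-46, and the longest in Igk over 130.5 kb and 5 segments from Igkv8-16 to Igkv3-12-1. In Trb the longest ran over 50.03 kb and in Tra/Trd over 58.6 kb. Median distances between neighbouring regions were 11.2 kb in Igh, 17.5 kb in Igk, 10.8 kb in Trb and 11.7 kb in Tra/Trd. The stretches named were picked as the longest of each locus. Gaps elsewhere in the genome were not measured beside them, so their length is a description.

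Signal in the loci was close to that of the rest of the genome. Only counted regions were compared, and most lay in a narrow band. Over all regions the 5th and 95th percentiles were 37.9 and 71.7 CPM per kb. Medians of any set thus had little room to differ, and their closeness says little about the loci. The median member had 51.6, 46.3 and 46.6 CPM per kb in libraries 1, 2 and 3 (mean 48.2 ± 2.98, SD, n = 3), and the median of all regions had 48.8, 47.4 and 49.5. Members were thus above all regions in library 1 and below them in the other two. The log2 ratio of the mean signal of members to that of all other regions was 0.01, -0.05 and -0.09 (mean -0.05 ± 0.05, SD), with an exact two-sided sign-flip permutation p of 0.5, where 3 libraries cannot give less than 0.25. By locus, medians of the mean signal were 49.0 in Igh, 48.5 in Igk, 48.7 in Trb and 50.4 CPM per kb in Tra/Trd. These differed by less than the spread of a single locus between libraries, which was 2.33 to 4.03 CPM per kb (SD). With technical replicate 1 alone, the shallow one, the log2 ratio to other regions was 0.10. In technical replicate 2 alone it was -0.08 and over regions of 150 bp or wider -0.12, both negative in every library.

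The counts behind each value were small. Members held 4535, 4105 and 5347 reads in the 3 libraries (0.271%, 0.261% and 0.257% of all reads in regions), and the median member had 10, 9 and 12. Total reads in regions were 273896 to 326440 per sample for technical replicate 1, and 1296355 to 1755015 for technical replicate 2. Of all members, 91 (21.3%) had a read in each of the 6 samples, against 22.8% of all regions. The median member's SD over libraries was 50.5% of its mean, against 49.7% over all regions, and 20 members (4.68%) had a library with 0 reads, against 4.37% of all regions. The labels do not tie the 3 libraries to separate cultures, so this spread may be technical. Over members, Spearman's rho between libraries was -0.39, -0.32 and -0.27, and over all regions -0.22, -0.29 and -0.27. Among regions of 200 bp or wider it was 0.11, -0.29 and -0.22 over 30 members and 0.10, 0.01 and 0.06 over all 13386. The set of regions was the same for all samples, and which samples it was called on is not given in the sources used here.

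The share of members among the strongest regions was below that of all regions, and lowest in Igh. The top 10% of all regions had at least 64.0 CPM per kb, and 27 members (6.32%) were among them. They were 4 in Igh (3.03%), 8 in Igk (6.20%), 4 in Trb (8.51%) and 11 in Tra/Trd (9.24%). Over all regions of chromosomes 6, 12 and 14 the shares were 8.77%, 7.68% and 8.10%, so Trb and Tra/Trd were near their chromosomes. The member just inside that limit had 64.2 and the one just outside 63.7. A single member reached the top 10% of every library, as did 973 of all regions (0.644%). Another 2 members (0.468%) reached it in 2 libraries, against 1.63% of all regions, and 112 (26.2%) in 1 library, against 24.9%. The same single member was the only one above 2 times the median of all regions (0.234% of members, against 1.33% of all regions). The count of 27 rested on summed replicates. With technical replicate 1 alone it was 54 (12.6%), and among regions of 150 bp or wider it was 3 of 79 (3.797%).

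**Figure D1:**
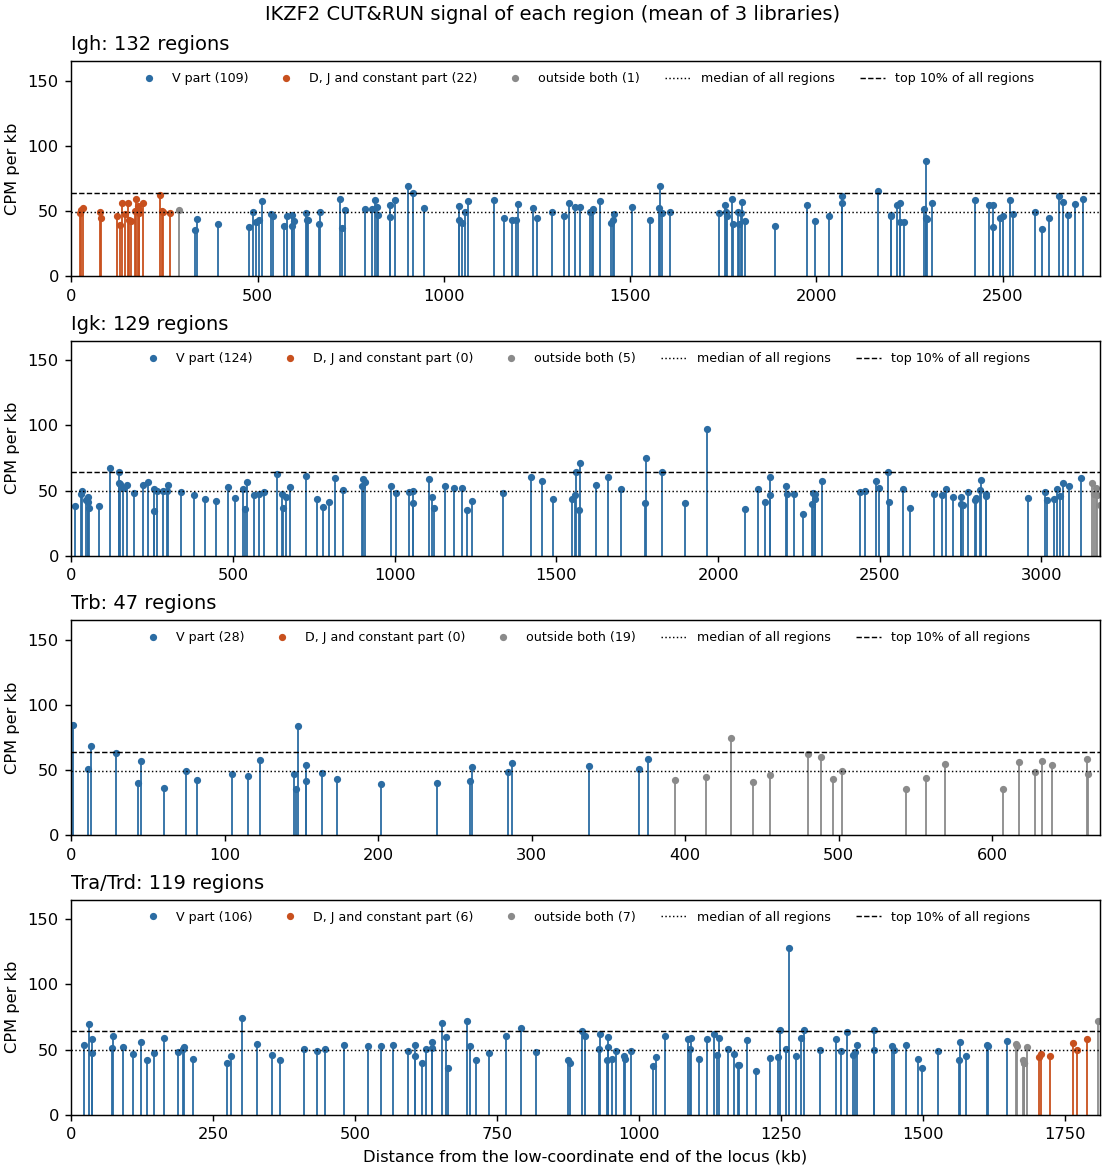
Signal of each of the 427 regions along the 4 loci. The x axis is the distance from the low-coordinate end of the locus in kb, the y axis is CPM per kb (mean of 3 libraries), colours mark the part of the locus, and the lines mark the median (49.5) and the top 10% limit (64.0) of all regions. The 5th and 95th percentiles of members are 37.5 and 64.7 CPM per kb, and the tallest is the Tra/Trd region at Trav4-4-dv10 (128).

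The next comparison set the V part of each locus, the span of its V segments, against the part with the D and J segments and the constant genes. V parts held 367 members at 48.1 per Mb and the other parts 28 at 69.9 per Mb, while 32 lay outside both. Igh accounted for 22 of the 28, at 81.3 per Mb against 44.7 in its V part. Tra/Trd had 6 at 54.2 per Mb against 64.3 in its V part. The J and constant parts of Igk and Trb held 0 regions, but these are short, at 4.19 and 15.0 kb.

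Mean signal differed between the 2 kinds of part by less than the spread between libraries. Over all loci V parts had 52.7, 49.1 and 49.3 CPM per kb in the 3 libraries (mean 50.4 ± 2.07, SD, n = 3), and D, J and constant parts 49.0, 54.4 and 47.2 (mean 50.2 ± 3.73). V parts were higher in libraries 1 and 3 and lower in library 2. The log2 ratio was 0.11, -0.15 and 0.06 (mean 0.01 ± 0.14, SD; exact two-sided sign-flip permutation p = 1). In Igh the mean log2 ratio was -0.01 ± 0.23 (permutation p = 1) and in Tra/Trd 0.09 ± 0.32 (permutation p = 0.75), each with both signs among the libraries. Of the 27 strongest members 25 lay in V parts (6.81% of 367), and 0 of the 28 in D, J and constant parts were among them, a count that allows a share of up to 10.7% and so includes the 10% background.

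**Figure D2:**
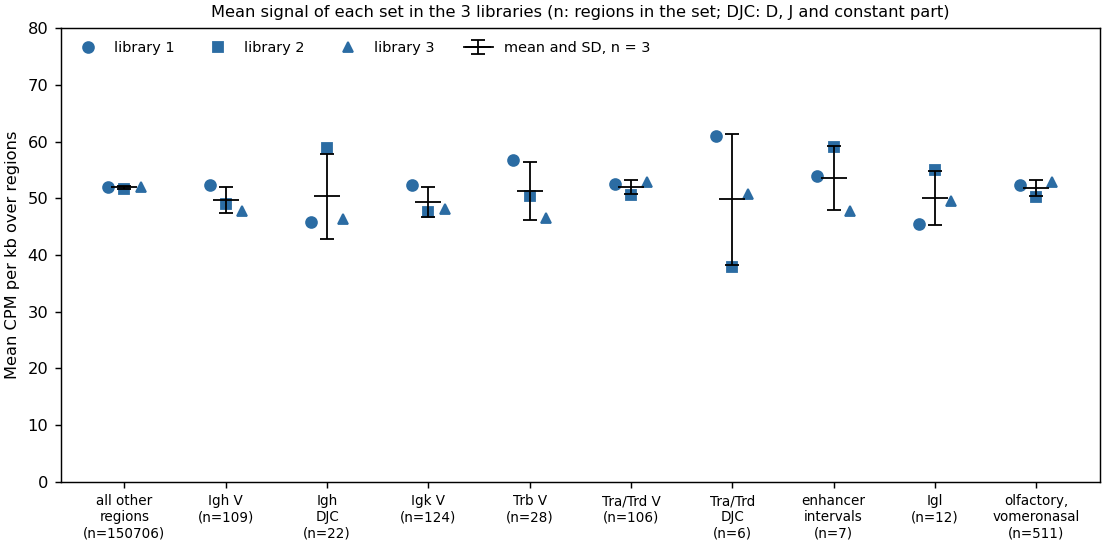
Mean CPM per kb (y axis, from 0) over the regions of each set (x axis) in the 3 libraries, as points, with the mean and SD over libraries. All sets lie near 50 CPM per kb, as most counted regions of the study do. The 6 regions of the Tra/Trd D, J and constant part spread most (60.9, 37.8 and 50.8).

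Among constant genes, the regions of Igh were of ordinary strength. Ighm, the constant gene of IgM, had a region with 69.1, 42.1 and 39.7 CPM per kb (mean 50.3 ± 16.3, SD, n = 3). The region in Ighd, the constant gene of IgD, was 293 bp wide, the widest of the Igh locus, and had 12.2, 82.6 and 32.8 (mean 42.5 ± 36.2). Its reads were 6, 38 and 20, so library 2 stood far above library 1. Ighg1, the constant gene of IgG1, had a pair of regions with means of 49.0 ± 15.8 and 44.3 ± 43.7, and a region 6 bp from Ighe, the constant gene of IgE, had 48.6 ± 28.7. In Tra/Trd the one region within 1 kb of a constant gene lay 442 bp from Trdc, with 82.9, 17.7 and 35.6 (mean 45.4 ± 33.7). None of these 6 regions was in the top 10%.

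Regions near D, J and constant segments were few. A region lay within 1 kb of 1 of 24 D segments, 7 of 85 J segments and 5 of 13 constant genes, with 72 of 516 V segments (13.95%) beside them. Segments differ in length, and these shares were not tested against each other. The D segment was Ighd4-1, at 549 bp from a region with 42.3, 49.7 and 61.3 CPM per kb (mean 51.1 ± 9.58). In Tra/Trd, 4 regions were classed with a J segment within 1 kb, with means from 43.9 to 58.3 CPM per kb. Of these, 3 in Tra were within 265 bp of a J segment, and the lowest was not among them. The one at Traj11 had 61.4, 59.5 and 53.9 (mean 58.3 ± 3.90), with library values close together. Traj35 (mean 55.2 ± 44.3) and Traj30 (mean 49.3 ± 34.7) spread widely.

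Known enhancers were examined through intervals between neighbouring genes, or from the last gene to the edge of the locus, since the annotation used has no enhancer entries. The 7 intervals held 7 regions with a median of 54.0 CPM per kb, 1 of them in the top 10%. That region was in the interval beyond Trac, the constant gene of the alpha chain, on the side where the Tra enhancer is known to lie. It spanned chr14:54227417-54227777, 3219 bp from Trac, and at 360 bp it was the second widest member. It held 13, 6 and 19 reads in technical replicate 1 against 26, 27 and 50 in the deeper technical replicate 2, and its 141 reads were the most of any member. Its signal was 64.7, 58.4 and 92.1 CPM per kb (mean 71.7 ± 17.9, SD, n = 3). All 6 samples had reads there, and every library was above the median of all regions, but only library 3 placed it in that library's top 10%.

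The other enhancer intervals were lower or varied more between libraries. The intron between Ighj4 and Ighm, where the Igh intronic enhancer lies, held a region with 70.7, 58.7 and 47.4 (mean 58.9 ± 11.6), and a second, 883 bp from Ighj4, with 42.9, 63.3 and 55.7 (mean 54.0 ± 10.3). Of these 6 library values 4 were above the median of all regions in that library. Between Trbc2 and Trbv31, the interval of the Trb enhancer, regions had means of 58.4 ± 36.8 and 47.1 ± 20.6, and the region beyond Igkc had 39.2 ± 25.5. The Igk locus as bounded here ends 3247 bp beyond Igkc, so that value does not cover any enhancer further out. The Trd interval held the region near Trdc already given. The 2513 bp between Igkj5 and Igkc, which hold the Igk intronic enhancer, had 0 regions, as did the 6205 bp of the Igh locus beyond Igha. Much of the Igh 3′ regulatory region lies outside the locus as bounded here.

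V parts make up most of the loci, and a region was near a minority of the V segments. A region lay within 1 kb of 17 of 183 V segments of Igh (9.29%), 16 of 162 of Igk (9.88%), 7 of 35 of Trb (20%) and 32 of 136 of Tra/Trd (23.5%). Regions stood at 44.7, 39.4, 71.7 and 64.3 per Mb in these V parts, so Trb and Tra/Trd had both the densest regions and the highest shares. The shares that density alone would give were not worked out, so these are no property of V segments by themselves. Segments annotated as functional had one at 53 of 363 (14.6%) and pseudogenes at 19 of 153 (12.4%). The 71 members within 1 kb of a V segment had a median of 50.5 CPM per kb, and 9 of them were in the top 10% (12.7%). The 298 members between segments had a median of 48.9, with 15 in the top 10% (5.03%), and the 46 at nested genes that are no receptor segments had 49.4, with 3 there.

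In Tra/Trd, regions lay just before V segments. Of the 106 regions in its V part, 15 (14.2%; 95% Wilson interval 8.77 to 22.0%, counting error only) had their centre in the 250 bp before the start of a V segment, where the V promoter is known to lie, and these windows make up 2.05% of the span. The next 250 bp upstream had 1 region, the 250 bp after the end had 0 (which allows a share of up to 2.83%), and the segments themselves had 6 (5.66% of regions in 4.27% of the span). Igh had 2 of 109 regions in the 250 bp before a start (1.83% in 1.88% of the span) and Trb had 1 of 28. Many Igh V segments are annotated as shorter (294 bp for Ighv1-4) than those of Tra/Trd (501 bp for Trav4-4-dv10). An annotated start may thus mark a different point of the segment, so the windows of these loci may be unlike. All V segments compared within a locus are taken to run in 1 direction, which is background knowledge, since the gene table holds no strand. Trdv5 and Trbv31, which run the other way, were left out, and Igk was not profiled because its V segments run both ways. This window was chosen after the values had been seen, so the share is a description. Its interval takes regions as independent, but some of the 15 lie at copies of one segment (Trav4d-3 and Trav4n-3). The interval may thus be too narrow.

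For scale, 4027 of all regions (2.66%) had their centre in the 250 bp before the start of a gene in the promoter table, in 0.288% of the genome, which is 9.26 times its share of the length. The Tra/Trd ratio was 6.91. For olfactory and vomeronasal receptor genes, another large set of clustered genes, it was 0.719, from 13 regions. The Tra/Trd ratio was taken within its V part, and the other ratios over all regions and the whole genome. Their denominators are thus unlike, and the genome-wide ratios also depend on how densely regions lie around the genes. No test of the difference between these ratios was made.

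**Figure D3:**
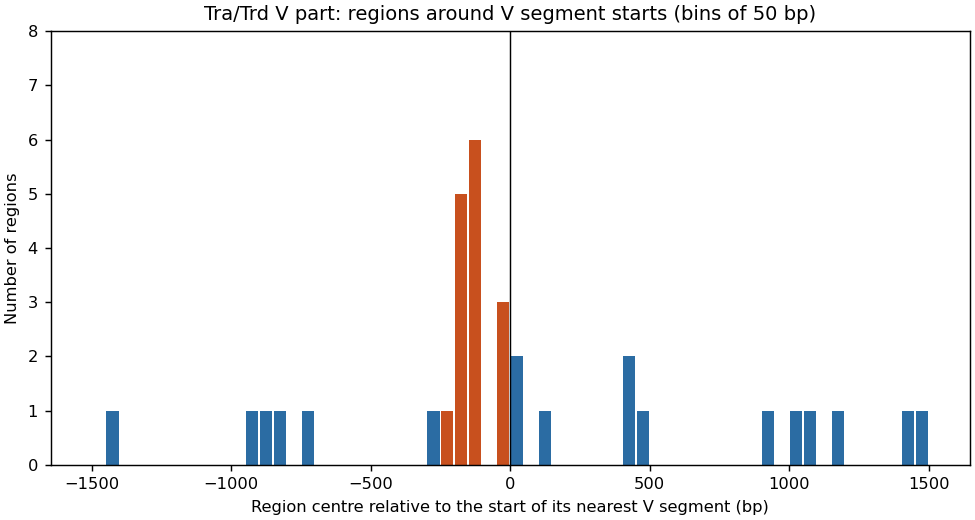
Number of regions (y axis) of the Tra/Trd V part by the position of their centre relative to the start of the nearest V segment (x axis, bp, bins of 50 bp; negative is before the start). The window of 250 bp before the start, in orange, holds 15 regions, 11 of them between 200 and 100 bp before it.

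The distance to the segment was alike in some V families and not in others. Trav4 had 3 of its 9 segments with such a region, centred 118, 123.5 and 125 bp before Trav4n-3, Trav4-4-dv10 and Trav4d-3. Trav10 had 2 of 3, at 190 and 190.5 bp, and Trav13 had 4 of 13, at 120 to 172.5 bp. Trav6 had 2, at 33 and 141 bp. Trav5, Trav8, Trav12 and Trav15 had 1 each, at 203, 172.5, 4 and 5.5 bp, so 8 of 28 families were represented. The regions centred 4, 5.5 and 33 bp before the start overlapped the segment itself. None of the 15 segments was annotated as a pseudogene, where 17 of the 136 V segments of the locus are. With so few segments this difference was not tested. Many Tra V segments are copies of one another, named with d and n, and how reads that match several copies were placed is not given in the sources used here, so counts could be split between copies.

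The median signal at these 15 regions was above that of the rest of the Tra/Trd V part in each library, which was not tested since the window was chosen with the values known. Their median was 53.2, 59.0 and 54.9 CPM per kb in libraries 1, 2 and 3 (mean 55.7 ± 2.97, SD, n = 3), and that of the other 91 was 51.7, 40.6 and 47.5 (mean 46.6 ± 5.58). The gap was small in library 1 and wide in library 2. Widths were alike, at medians of 103 and 104 bp, and 4 of the 15 were in the top 10% against 6 of the 91 (6.59%). The 4 were the regions at Trav4-4-dv10, Trav13d-4, Trav4n-3 and Trav6n-7. By comparison, all regions just before genes of the promoter table had a median of 70.7.

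The strongest member lay 72 bp before Trav4-4-dv10, a V segment that can serve both the alpha and the delta chain, at chr14:53683502-53683605. Technical replicate 1 gave it 4, 0 and 3 reads and technical replicate 2 gave it 18, 27 and 16. Its signal was 127.5, 167 and 88.6 CPM per kb (mean 128 ± 39.2, SD, n = 3), and it ranked 655 among all regions. It was the member in the top 10% of every library, and its lowest library value was above the mean of every other member except the Igk region at 97.1. The regions at the other Trav4 copies were weaker. Trav4n-3 had 30.9, 110 and 58.0 (mean 66.2 ± 40.1) and Trav4d-3 had 16.6, 59.0 and 84.5 (mean 53.4 ± 34.3), both below Trav4-4-dv10 in every library.

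Other strong members of Tra/Trd lay between segments. The region 4415 bp from Trav6d-3 had 56.9, 78.8 and 86.9 CPM per kb (mean 74.2 ± 15.6), and the one 6520 bp from Trav10n had 81.7, 73.7 and 60.7 (mean 72.0 ± 10.6), which were among the closest library values of the strong members. The lowest Tra/Trd region, 2336 bp from Trav12-3, had a mean of 33.4 ± 13.3.

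In Trb the strongest region covered the start of Trbv1, the first V segment, at chr6:40891036-40891349. At 313 bp it was the third widest member. Technical replicate 1 gave it 6, 4 and 0 reads, technical replicate 2 gave it 37, 49 and 41, and its signal was 82.0, 108 and 62.9 CPM per kb (mean 84.3 ± 22.5, SD, n = 3). Technical replicate 2 was higher in all 3 libraries after scaling to totals, with a fitted difference of 2.13 on the log2 scale (SE 0.63), which was not called (edgeR quasi-likelihood test, Benjamini-Hochberg adjusted p = 0.149). The widest member, 361 bp at Trbv12-3, had a mean of only 40.4. A region 9809 bp from Trbv2 had 12.4, 139 and 100.1 (mean 83.9 ± 65.0) and one 4751 bp from the trypsinogen gene Try5 had 45.9, 147 and 31.7 (mean 74.9 ± 62.9), so each rested on 1 or 2 libraries. The lowest Trb region had 35.4 ± 15.0.

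In Igh the strongest region lay 12300 bp from Ighv1-65 and 1171 bp from Gm9238, at chr12:115544647-115544837. Its signal was 104, 87.1 and 73.3 CPM per kb (mean 88.1 ± 15.2, SD, n = 3), from 33, 26 and 29 reads, and its libraries were among the closest of the strong members. The next in rank were far less steady. The region 1240 bp from Ighv1-31 had 51.3, 110 and 46.5 (mean 69.1 ± 35.1). The region in Ighv7-3 had 39.4, 168 and 0 (mean 69.1 ± 87.8), and 0 reads in library 3 allow up to 15.8 CPM per kb. The lowest, 2217 bp from Ighv5-2, had 35.3 ± 16.5.

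In Igk the strongest region lay between segments, 7280 bp from Igkv13-57-2, with 35.8, 121 and 135 CPM per kb (mean 97.1 ± 53.5, SD, n = 3), low in library 1 and high in the others. The region 147 bp from Rprl1, a nested gene, had 58.4, 125 and 41.8 (mean 74.9 ± 43.8). Another, 11017 bp from Igkv4-77, had 74.6, 13.3 and 125 (mean 71.0 ± 56.0). The lowest, 1303 bp from Igkv12-44, had 32.2 ± 15.96, the weakest member of all.

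**Figure D4:**
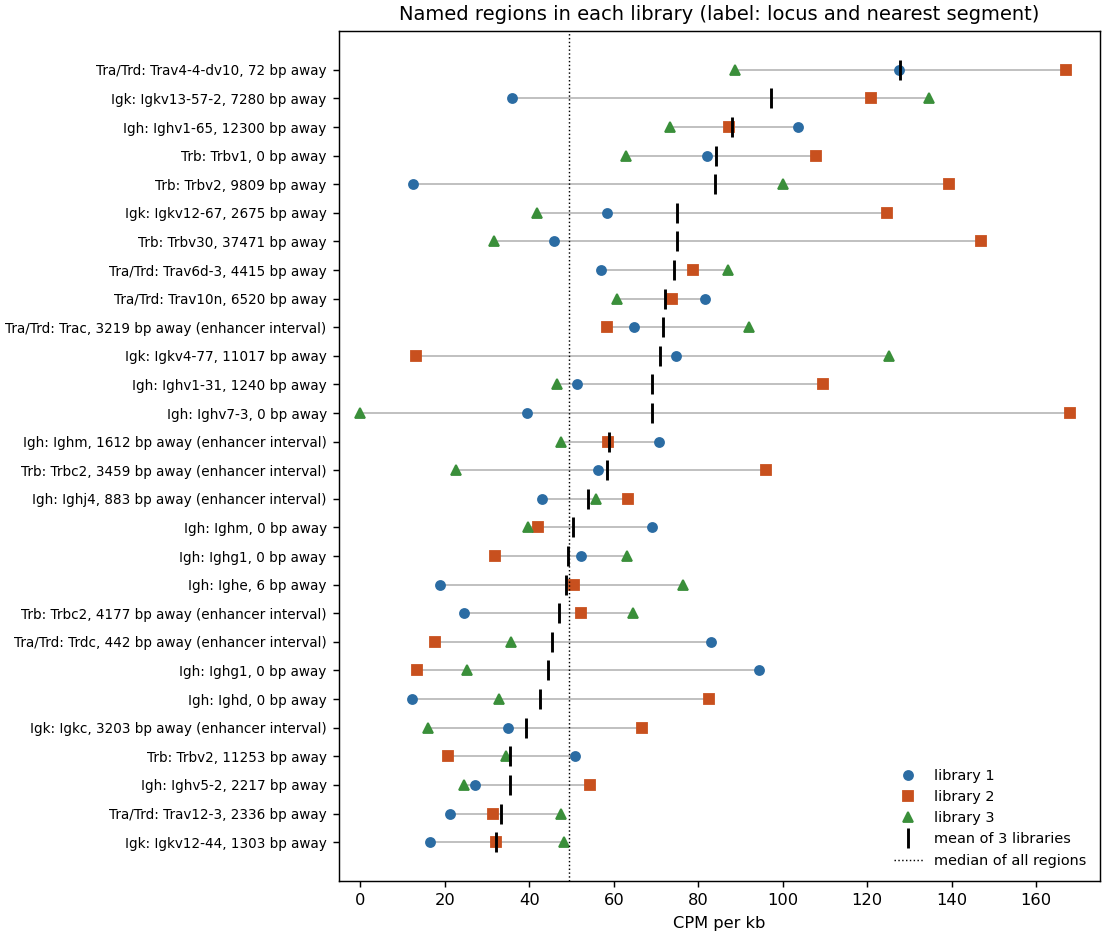
CPM per kb (x axis) in each of the 3 libraries for the 28 named regions (y axis, ordered by mean, labelled by locus and nearest receptor segment). Trav4-4-dv10 is highest at 128 with all libraries above 88, while several regions with means near 70 to 97 have a library below the median of all regions (49.5, dotted).

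Counts were tested for differences within the anti-IKZF2 group. With the library as a block, edgeR's quasi-likelihood test called 71 of 27452 regions (0.259%) as different between technical replicates at an adjusted p under 0.05. Of the 72 members that passed the filter on low counts 0 were called, with 2 (2.78%) at an unadjusted p under 0.05, against 6.86% of all regions tested. DESeq2 called 56 regions and 0 members, with 5 members (6.94%) at an unadjusted p under 0.05, against 5.06% of all. Between libraries edgeR called 4 regions (0.0146%) and 0 members, with 5 members (6.94%) at an unadjusted p under 0.05, against 4.35% of all regions tested. DESeq2 called 4 regions and 0 members, with 6 (8.33%) at an unadjusted p under 0.05, against 5.69% of all. Counts were also simulated with a fixed spread, and changes were placed only in regions with the most reads. There the test between technical replicates (25001 regions) recovered 2% of 2-fold, 38% of 4-fold and 98% of 8-fold changes. The test between libraries (25749 regions) recovered 0%, 32% and 94%. These rates need not hold for members with fewer reads or a wider spread. A lack of calls thus says little about small differences, and for such members about larger ones.

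Genes that assemble and serve these loci were examined outside them, as a list of 40. A gene's value was its highest region within 5 kb of either gene end. A region was found for 34 (85.0%), against 73.7% of 21887 protein-coding genes, with a median of 63.2 CPM per kb against 58.8. A single gene of the list (2.50%) was in the top 10% of genes with a region, against 7.37% of all genes. It was Rag2, a recombinase subunit, with 39.1, 149 and 135 (mean 108 ± 59.7), low in library 1. Polm, a polymerase of end joining, had 99.6 ± 10.4 and Cd3d, a T cell receptor partner, 98.0 ± 25.4. Rag1, the other recombinase subunit, had 42.2 ± 15.1 and Dntt, which adds bases at the joints, 47.3 ± 23.4. Foxo1, a transcription factor of lymphocyte development, was lowest at 36.7 ± 13.1. Bcl11b, Cd79b, Gata3, Lig4, Poll and Ptcra had no region in the window.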

How the data were processed

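CUT&RUN with an anti-IKZF2 antibody was counted in 6 samples of RN2 cells (3 libraries, 2 technical replicates each). The deposited files give raw read counts over 1 set of regions common to all samples, not normalized, per the file headers. Bowtie2 2.3.3.1, MACS2 and mm10 are named per the submitters' processing notes. Tool roles, peak threshold and calling samples: not given in the sources used here. Region starts may count from 0 or 1, so coordinates are printed as deposited and bases of a promoter may be off by 1.

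Technical replicates were summed per library. Signal was CPM of reads in regions per kb of region, and dividing by width favours narrow regions. Segments and genes came from a RefSeq table of GRCm38.p6. A segment was near a region within 1 kb. V parts span the V segments (with 1 kb at either side), and D, J and constant parts span from the first D or J segment to the last constant gene. Levels were compared over libraries by exact sign-flip permutation. The count test over all regions was edgeR 4.0.16 in R 4.3.3 (TMM, filterByExpr, glmQLFTest, Benjamini-Hochberg), with DESeq2 1.42.0 as an alternative. The labels make both technical replicates part of a library, and their deviations correlated at 0.23 to 0.25 within a library and -0.14 to -0.09 across libraries. Deviations were taken from the mean over libraries, so the values across libraries follow from those within and add no separate support. Tests were tried on simulated data. Python 3.11.15 with pandas 2.3.3, numpy 2.4.6, scipy 1.17.1 and matplotlib 3.10.9 did the rest.

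Regions named are the 3 highest and the lowest of each locus, those within 1 kb of a constant gene or in an enhancer interval, and any in the top 10% in all 3 libraries. The regions before Tra/Trd V segments, those at D and J segments and those in promoters were added after their values were seen. Of the gene list the 3 highest, the lowest, Rag1, Rag2 and Dntt are named. The members and lists were chosen with earlier results of these data known. Intervals cover counting error only.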

Additional observations from a re-analysis of the deposited data

How the results depend on the processing

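Of 116 alternative values 91 stayed alike, by rules that differed by kind. A log2 ratio had to keep its sign, and a level had to move by less than its SD over libraries. A count had to stay of similar size, and a share inside its Wilson interval. Some levels among the 91 crossed that of all regions. The ratio of medians in Tra/Trd, for example, went from 1.02 to 0.99 in technical replicate 2 alone. The log2 ratio of V parts to D, J and constant parts is near 0 and changed sign under the settings below, with no call to lose. The cause was not tested. Pooled over loci it was -0.030 by medians, -0.0094 by summed reads per covered kb, -0.024 in technical replicate 2 alone, -0.098 without dividing by width and -0.13 over regions of 150 bp or wider, and -0.044 to 0.084 with 1 library left out. In Igh it was 0.016 by medians, 0.052 by segments within 1 kb, 0.23 in technical replicate 1 alone, 0.48 over regions that pass filterByExpr and -0.11 to 0.12 with 1 library left out. In Tra/Trd it was -0.15 over regions of 150 bp or wider, where 1 region was left to compare, and -0.077 to 0.24 with 1 library left out. The log2 ratio of the loci to other regions was 0.10 in technical replicate 1 alone and -0.07 to -0.02 with 1 library left out. It was negative in every library in technical replicate 2 alone (-0.077) and without dividing by width (-0.10). The same held over regions of 150 bp or wider (-0.12) and over those that pass filterByExpr (-0.17). For each the exact sign-flip permutation p was 0.25, the least that 3 libraries can give.

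The median signal of members over that of all regions was 0.99, and in technical replicate 1 alone it was 1.08, with 1.13 in Igh and 1.08 in Igk. Over regions that pass filterByExpr it was 0.915 in Igh and 1.12 in Trb. Members in the top 10% numbered 27, 54 in technical replicate 1 alone, 3 of 79 at 150 bp or wider and 2 of 72 (2.78%) that pass filterByExpr. Of the gene list 0 of 17 with a region within 1 kb of a gene end were in the top 10% of genes. Alternatives for the share before Tra/Trd V segments were chosen after seeing the data: it was 8.49% with 150 bp, 15.1% with 500 bp and 18.8% (3 of 16) at 150 bp or wider.

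With no replicate block, edgeR called 0 members between technical replicates (3 of 72 at an unadjusted p under 0.05, 4.17%, against 6.92% of all) and 50 regions in all. Without library 1, 2 or 3 it called 18, 0 and 8 regions in all and 0 members each time. Of the calls 38 were higher and 33 lower in technical replicate 2 with TMM, 9 and 46 with total reads, and 14 and 42 with DESeq2. Depth limits single regions: the median member had 9 to 12 reads per library. Its part in the spread between libraries was not tested.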

Other observations

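Some regions lay just beyond the loci. In the 50 kb below the Igh locus, where much of the Igh 3′ regulatory region is known to lie, there were 5 regions, and 1 was in the top 10% of all regions, at chr12:113219995-113220085, with 92.9, 70.8 and 48.0 CPM per kb (mean 70.6 ± 22.4, SD, n = 3). In the 10 kb beyond the Igk locus there were 2, with means of 39.7 ± 9.13 and 50.1 ± 64.8, the second with 0 reads in library 1. The 12 regions of Igl had means of 45.5, 55.0 and 49.5 CPM per kb over the 3 libraries (SD 4.78), near those of the 4 loci.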
